A study of Homo sapiens with 10 samples.

Results

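The genes of glycolysis and of the hypoxia response were examined in HCT116 cells with and without CD276. They were chosen by symbol, as a list of 37 genes, and all 37 were found among the 58050 gene identifiers of the expression table and passed the level filter, a mean of at least 1 TPM over all libraries. TPM gives a gene's share of the transcripts in a library after division by transcript length. By role the list held 17 glycolytic enzymes, 4 transporters of glucose or lactate, 4 kinases that steer glucose carbon, HIF1A with 3 of its regulators, and 8 genes known as targets of hypoxia-inducible factor (HIF).

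HCT116 is an established human colon cancer line of epithelial origin. HCT116-WT were the wild-type cells. The paper names a scrambled guide RNA as a control, and whether these cells had received it is not stated in the sources used here. HCT116-CD276KO were cells in which a Cas9 ribonucleoprotein with a guide RNA had been used to disrupt CD276, an immune checkpoint family member on the cell surface. The knockout line was 1 clone grown from a single cell, so loss of CD276 and other features of that clone cannot be told apart. For each of the groups RNA of 5 replicates was sequenced, with no treatment named and with the lines kept in different culture flasks.

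Glycolysis splits glucose into pyruvate in the cytosol, and lactate dehydrogenase turns pyruvate into lactate, which leaves the cell through monocarboxylate transporters. In the presence of oxygen, prolyl hydroxylases of the EGLN family mark HIF-alpha proteins for destruction by the VHL ubiquitin ligase. When oxygen is short, HIF-alpha proteins accumulate, pair with ARNT and raise transcription of glucose transporters, glycolytic enzymes, the pH regulator CA9 and other genes. HIF1A is controlled largely at the protein level, which mRNA values do not show.

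CD276 itself fell from 45.3 ± 6.17 TPM (SD, n = 5) in HCT116-WT to 5.46 ± 1.21 TPM (SD, n = 5) in HCT116-CD276KO, a log2 fold change of -2.85 (limma adjusted p = 1.39e-07). Of 7 colonic epithelial markers, 6 were expressed and VIL1 stayed at or below 0.05 TPM. Of the 6 tested, 5 were called lower in HCT116-CD276KO at an adjusted p under 0.05 in limma, beside 4.09% of all genes tested. CDH1 fell most, with a log2 fold change of -1.07, and CDX2, at 0.07, was not called. The summed TPM of the 7 was 4181 to 4954 in HCT116-WT and 3317 to 3783 in HCT116-CD276KO. Leukocyte and macrophage markers were under 0.5 TPM in every library for 5 of 6 genes, with CD68 the exception, and their sum was 9.34 to 15.5 TPM in HCT116-WT and 6.28 to 13.4 TPM in HCT116-CD276KO. The fibroblast list was under 0.5 TPM for 5 of 6 genes, COL1A1 excepted, and summed to 6.02 to 8.99 and 4.54 to 7.51 TPM. The endothelial list summed to at most 0.66 TPM in any library. Within a library, values deviated with transcript length, with a Spearman rho across genes of -0.52 (HCT116-CD276KO replicate 2) at the lowest and 0.42 (HCT116-WT replicate 1) at the highest. With GC content the rho ran from -0.34 (HCT116-WT replicate 1) to 0.61 (HCT116-WT replicate 3), and HCT116-CD276KO replicate 2 was at 0.48. The part of these marker, length and GC differences in the results was not tested, except where values after a length and GC correction are given.

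On the TPM scale the list as a whole did not move in 1 direction from 0. By limma with Benjamini-Hochberg adjustment over the 13581 genes tested, 2 of the 37 genes passed an adjusted p of 0.05, which is 5.41% of the list beside 4.87% of all genes tested. At a mean of at least 5 TPM, where CA9 was not tested, 1 of 36 passed (2.78%), beside 5.02% of all genes. CA9, a carbonic anhydrase at the cell surface, rose, and SLC2A1, the glucose transporter GLUT1, fell. In bulk RNA, fewer cells expressing a gene and less of its RNA in each cell cannot be told apart. By direction, 4.09% of all genes tested were lower in HCT116-CD276KO and 0.781% were higher. On the log2(TPM + 1) scale no gene of the list passed both the test and a 2-fold change, as 0.486% of all genes did. CA9, at a mean of 0.568 TPM in HCT116-WT and 2.01 TPM in HCT116-CD276KO, passed the level filter only through the group in which it is high. At such levels the log2 fold change depends on the number added to TPM. CA9 did pass both with 0.1 rather than 1 added to TPM (log2 fold change 1.71, limma adjusted p = 0.00366). It also did with quantile normalization (1.05, limma adjusted p = 0.00182) and without HCT116-WT replicate 5 (1.04, limma adjusted p = 0.00175). At an unadjusted p under 0.05 in limma there were 9 of the 37 genes, 5 with values below 0 and 4 above, beside 21.9% of all genes tested, 17.6% below 0 and 4.33% above.

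The log2 fold changes of the list, on the log2(TPM + 1) scale used throughout, ran from -0.50 to 0.94 with a median of 0.00, while the median of all genes tested was -0.09. Of the 37 genes, 18 lay below 0 and 19 above, and 27 lay within 0.2 of it. Of all genes tested, 68.1% lay below 0. Below the median of all genes tested lay 12 of the 37 genes, and 3 of the 17 enzymes. With median-of-ratios scaling the median of the list was 0.1028, beside 0.0037 for all genes. With quantile normalization these were 0.007 and 0.0073, so the place of the list relative to all genes depended on the scaling. The values of the groups did not overlap for SLC2A1, which was lower, and for CA9 and LDHB, which were higher. Of all genes tested 7.61% did not overlap, 6.19% lower and 1.42% higher. After a length and GC correction, in which each library's trend with both was subtracted, 9 genes of the list were called, 3 lower and 6 higher, beside 9.64% of all genes.

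**Figure D1:**
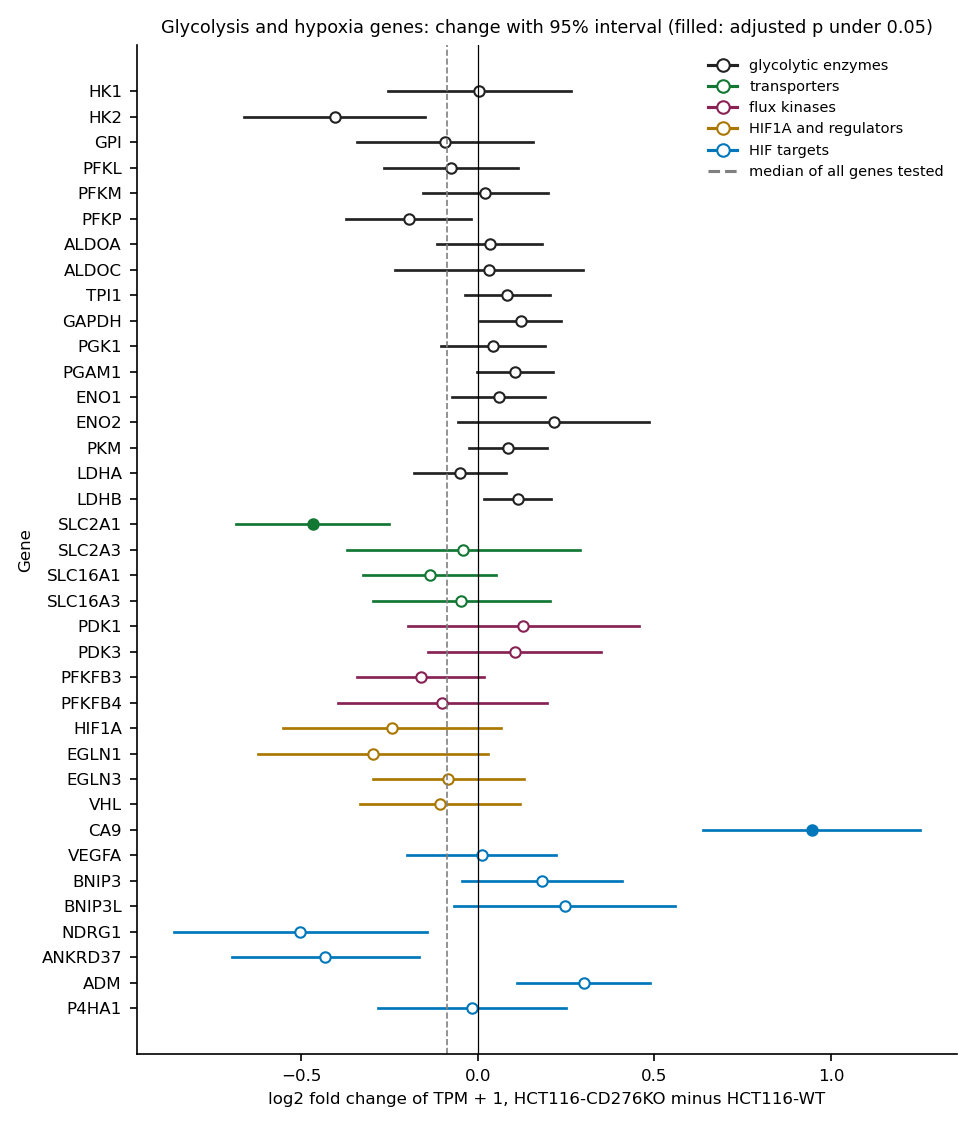
Log2 fold change of TPM + 1 (x axis, HCT116-CD276KO minus HCT116-WT) of the 37 genes (y axis) with 95% intervals from limma, coloured by role, with filled points where the adjusted p was under 0.05. CA9 stands alone on the right at 0.94, SLC2A1 is the other filled point at -0.47, and most enzymes sit close to 0.

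Together the 37 genes made up 2.11% of all TPM in HCT116-WT and 2.19% in HCT116-CD276KO. Their sum was 21100 ± 658 TPM (SD, n = 5) and 21897 ± 1241 TPM (SD, n = 5), a ratio of 1.04, and the libraries of the groups overlapped. Nearly all of this came from the enzymes, whose sum was 19745 ± 601 TPM (SD, n = 5) in HCT116-WT and 20686 ± 1113 TPM (SD, n = 5) in HCT116-CD276KO. In TPM as deposited, the other roles had mean sums in HCT116-CD276KO below those of HCT116-WT. The ratios were 0.893 for transporters, 0.966 for the flux kinases, 0.859 for HIF1A and its regulators and 0.901 for HIF targets. Each pair of sums overlapped between the groups, and the highest flux kinase sum, 72.61 TPM, was that of HCT116-CD276KO replicate 1. The HIF target sum rests on NDRG1, and without it the other 7 targets summed to 179 ± 10.2 and 201 ± 25.1 TPM (SD, n = 5 each), a ratio of 1.13.

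**Figure D2:**
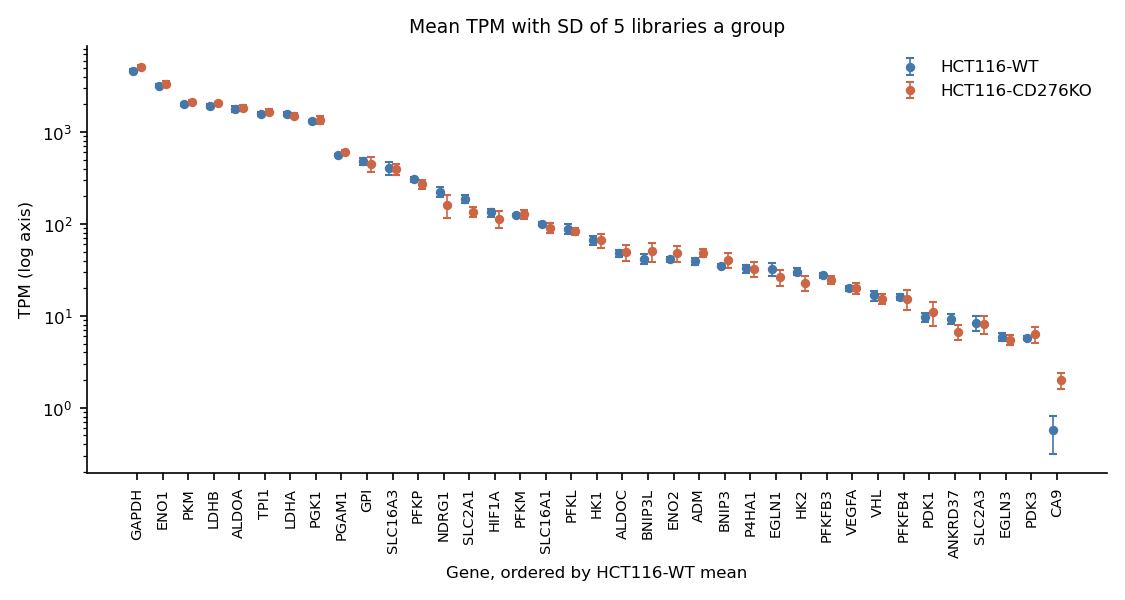
Mean TPM on a log axis with the SD of 5 libraries in each group, for the 37 genes ordered by their HCT116-WT mean. Levels span from 4648 TPM for GAPDH down to 0.57 TPM for CA9 in HCT116-WT, and CA9 shows the widest gap between the groups.

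None of the 17 glycolytic enzymes passed the adjusted threshold, and their median log2 fold change was 0.03, with 12 above 0 and 5 below. The enzyme mRNA that was most abundant, GAPDH of the middle step of the pathway (chr12:6534512-6538374, + strand, hg38), was at 4767, 4712, 4662, 4379 and 4722 TPM in HCT116-WT replicates 1 to 5. In HCT116-CD276KO replicates 1 to 5 the values were 5487, 5114, 4695, 5204 and 4807 TPM. The groups overlapped, since HCT116-CD276KO replicate 3 lay below HCT116-WT replicates 1, 2 and 5, and the log2 fold change was 0.12 with an SE of 0.05 (limma adjusted p = 0.204).

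Hexokinase 2, HK2, which traps glucose in the cell as glucose 6-phosphate and is known for its high level in many tumours, was the enzyme with the lowest value. It was at 30.3 ± 2.55 TPM (SD, n = 5) in HCT116-WT and 22.9 ± 4.26 TPM (SD, n = 5) in HCT116-CD276KO, a log2 fold change of -0.41 with an SE of 0.12 and a limma adjusted p of 0.0750. Without HCT116-CD276KO replicate 1, the highest library of its group for HK2, the value was -0.48 and the adjusted p from limma was 0.0283. This was the only call of HK2 among the 10 fits with 1 library left out, in which the limma adjusted p reached 0.174. The ubiquitous hexokinase HK1 was at 66.3 ± 6.92 and 67.0 ± 11.6 TPM (SD, n = 5 each).

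LDHB, the lactate dehydrogenase subunit that favours pyruvate, ranged from 1813 to 2019.7 TPM in HCT116-WT and from 2030.2 to 2116 TPM in HCT116-CD276KO. The groups were adjacent without overlap, as were 7.61% of all genes tested without overlap. The unadjusted two-sided exact permutation p was 0.00794, the smallest that 5 against 5 libraries can give, and it follows from the lack of overlap alone. The log2 fold change of LDHB was 0.11 with a limma adjusted p of 0.160. LDHA, its partner that favours lactate, was at 1566 ± 84.7 and 1513 ± 104 TPM (SD, n = 5 each). The platelet-type phosphofructokinase PFKP was at 309 ± 18.8 and 270.4 ± 29.1 TPM (SD, n = 5 each), with a log2 fold change of -0.20 (limma adjusted p = 0.187).

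The other enzymes lay within 0.22 of 0 on the log2 scale and none was called. These were GPI, PFKL and PFKM of the upper steps, ALDOA, ALDOC and TPI1 of the splitting of the sugar, and PGK1, PGAM1, ENO1, ENO2 and PKM of the lower steps. Among them the neuronal enolase ENO2 had the value farthest from 0, at 0.21 with a 95% interval of -0.06 to 0.48. The narrowest interval of the enzymes was that of LDHB, at 0.02 to 0.21.

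Shares within a step compare genes inside each library and do not change with the scaling between libraries. HK2 made up 30.5% to 32.0% of the summed HK1 and HK2 TPM in the HCT116-WT libraries, and 24.6% to 26.1% in the HCT116-CD276KO libraries. The mean share was 31.4% ± 0.634 (SD, n = 5) and 25.4% ± 0.665 (SD, n = 5), so the groups stood apart by far more than the spread of either, although the HK2 level itself overlapped. After the length and GC correction the shares were 29.6% to 32.4% and 24.9% to 27.2%, again with no overlap.

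PFKP made up 59.1% ± 1.11 (SD, n = 5) of the PFKL, PFKM and PFKP sum in HCT116-WT and 56.1% ± 0.987 (SD, n = 5) in HCT116-CD276KO, and the ranges, 57.8% to 60.7% and 54.9% to 57.0%, did not overlap. The muscle-type PFKM took 22.1% to 26.0% and 25.4% to 27.5%, which overlapped. After the length and GC correction the PFKP shares were 58.1% to 61.0% and 54.6% to 57.2%, and the PFKM shares 22.3% to 25.1% and 25.7% to 27.4%, both without overlap. LDHB of the 2 lactate dehydrogenase subunits took 54.4% to 56.0% in HCT116-WT and 55.5% to 60.6% in HCT116-CD276KO, with an overlap that rests on HCT116-CD276KO replicate 1. For aldolases, enolases, glucose transporters, monocarboxylate transporters, the PDK pair and the PFKFB pair the shares overlapped. The shares are given as descriptions with no test, and how often shares separate between the groups for genes outside the list was not counted.

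Of the 4 transporters, 1 was called and all 4 had values below 0, with a median log2 fold change of -0.09. Over all genes tested, 68.1% lay below 0 and the median was also -0.09. SLC2A1 (ENSG00000117394, chr1:42925353-42958893, - strand, hg38) brings glucose into most cells. Its TPM in HCT116-WT replicates 1 to 5 was 189.6, 168, 216, 170.4 and 199.6. In HCT116-CD276KO replicates 1 to 5 it was 148, 142, 109, 133 and 149.8. Every HCT116-CD276KO library was below every HCT116-WT library.

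The mean of SLC2A1 in HCT116-CD276KO was 72.3% of that in HCT116-WT, and the log2 fold change was -0.47 with an SE of 0.10 and a 95% interval of -0.68 to -0.25 (limma adjusted p = 0.0211). The call was lost without HCT116-WT replicate 1 (adjusted p = 0.0587), without HCT116-WT replicate 5 (0.0644) or without HCT116-CD276KO replicate 4 (0.0556), with log2 fold changes of -0.46, -0.45 and -0.46, and when all genes above 0 TPM were tested (0.0515), all in limma. SLC2A3, the high-affinity transporter GLUT3, was far lower in level, at 8.40 ± 1.57 TPM in HCT116-WT and 8.18 ± 1.85 TPM in HCT116-CD276KO (SD, n = 5 each).

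SLC16A3, the lactate exporter MCT4, had the highest level of the transporters. It was at 385, 355, 524, 376 and 399.7 TPM in HCT116-WT replicates 1 to 5. For HCT116-CD276KO replicates 1 to 5 the values were 414, 478, 349, 365 and 361 TPM. The groups overlapped almost fully, with HCT116-WT replicate 3 above all others. SLC16A1, the lactate transporter MCT1, was at 99.6 ± 5.01 and 91.1 ± 11.5 TPM (SD, n = 5 each), a log2 fold change of -0.14 (limma adjusted p = 0.355).

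None of the 4 flux kinases was called, and their median log2 fold change was 0.00. PDK1 and PDK3 hold pyruvate back from the mitochondria by inhibiting pyruvate dehydrogenase, and PFKFB3 and PFKFB4 set the level of the activator of phosphofructokinase. PFKFB3, the most abundant, was at 30.2, 27.1, 27.3, 24.8 and 28.4 TPM in HCT116-WT replicates 1 to 5, and 26.5, 25.1, 20.8, 23.7 and 26.7 TPM in HCT116-CD276KO replicates 1 to 5. These overlapped, and the log2 fold change was -0.16 with a limma adjusted p of 0.268. PDK1 was at 16.3 TPM in HCT116-CD276KO replicate 1 and at 8.30 to 11.2 TPM in the other 9 libraries. PDK3 and PFKFB4 had log2 fold changes of 0.10 and -0.10.

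HIF1A and its regulators EGLN1, EGLN3 and VHL all had values below 0, as did 68.1% of all genes tested. None was called, and their median log2 fold change was -0.18. HIF1A encodes the oxygen-labile subunit of HIF-1 (chr14:61695513-61748259, + strand, hg38). Its mRNA was at 150.4, 139, 117, 124 and 136 TPM in HCT116-WT replicates 1 to 5. The HCT116-CD276KO replicates 1 to 5 were at 138, 82.2, 93.1, 126 and 133 TPM. Replicates 2 and 3 of HCT116-CD276KO were the lowest of all, the others lay inside the HCT116-WT range, and the log2 fold change was -0.24 with a 95% interval of -0.55 to 0.07 (limma adjusted p = 0.323). HCT116-CD276KO replicates 2 and 3 were also the libraries with the most negative length trends, at a rho of -0.52 and -0.49.

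EGLN1, the main oxygen-sensing prolyl hydroxylase, had a log2 fold change of -0.30 with a 95% interval of -0.62 to 0.03 (limma adjusted p = 0.266). EGLN3, a hydroxylase that HIF itself induces, was at -0.08, and VHL, the substrate receptor of the ligase, was at -0.11.

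Among the 8 HIF targets, CA9 was called higher, 7 were not called, and the values ran in both directions around a median of 0.10. CA9 (ENSG00000107159, chr9:35673928-35681159, + strand, hg38) hydrates carbon dioxide outside the cell and is widely used as a marker of hypoxia. Its TPM in HCT116-WT replicates 1 to 5 was 0.46, 0.46, 0.57, 0.35 and 1.00. In HCT116-CD276KO replicates 1 to 5 it was 2.66, 1.61, 1.79, 2.09 and 1.90. Every HCT116-CD276KO library was above every HCT116-WT library, and the highest was HCT116-CD276KO replicate 1.

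The mean of CA9 was 0.568 ± 0.254 TPM (SD, n = 5) in HCT116-WT and 2.01 ± 0.403 TPM (SD, n = 5) in HCT116-CD276KO, a ratio of 3.54. On the log2(TPM + 1) scale the fold change was 0.94 with an SE of 0.14 and a 95% interval of 0.64 to 1.25 (limma adjusted p = 0.00268). CA9 is the one gene of the list whose HCT116-WT mean was under 1 TPM, so it passed the level filter through the group in which it is high, had to differ to be tested, and stayed low in both groups. When all genes above 0 TPM were tested, a filter that CA9 passes in both groups, the adjusted p from limma was 0.00656. In GENCODE 44, 571 of its 1598 exon bases (35.7%) also lie in exons of ARHGEF39 on the opposite strand. ARHGEF39 was at 17.7 to 19.9 TPM in HCT116-WT and at 15.4 to 16.8 TPM in HCT116-CD276KO, which is the opposite order to CA9. The kit marks strand, but whether the counting used it is not stated in the sources used here.

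NDRG1, a stress-induced gene of differentiation, was the most abundant of the targets. It was at 217, 224, 231, 187 and 262 TPM in HCT116-WT replicates 1 to 5. The HCT116-CD276KO replicates 1 to 5 were at 232, 115, 130.1, 169 and 163 TPM. HCT116-CD276KO replicate 1 lay among the HCT116-WT libraries and the other 4 lay below them all. The log2 fold change was -0.50 with an SE of 0.16 (limma adjusted p = 0.107), and without HCT116-CD276KO replicate 1 it was -0.64 (limma adjusted p = 0.0179). NDRG1 was called in no other of the 10 fits with 1 library left out, and the limma adjusted p in these reached 0.234.

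ANKRD37 and ADM came close to the threshold in opposite directions. ANKRD37, a small ankyrin repeat protein, was at 9.31 ± 1.08 and 6.69 ± 1.28 TPM (SD, n = 5 each), with a log2 fold change of -0.43 and a limma adjusted p of 0.0674. Of the 10 fits with 1 library left out, ANKRD37 was called in 1, that without HCT116-CD276KO replicate 3. Of its exon bases, 40.3% lie in exons of UFSP2 on the opposite strand. ADM, which encodes the vasodilator peptide adrenomedullin, was at 39.1 ± 3.09 and 48.5 ± 5.30 TPM (SD, n = 5 each), with a log2 fold change of 0.30 and a limma adjusted p of 0.0724.

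The mitophagy receptors BNIP3 and BNIP3L had log2 fold changes of 0.18 and 0.25, with limma adjusted p of 0.312 and 0.324. In both, HCT116-CD276KO replicate 1 was the highest library, at 53.9 TPM for BNIP3 and 69.3 TPM for BNIP3L. BNIP3 is uncertain, because the TPM of its 44 named pseudogenes summed to as much as 64.8% of its own in a library. For no other gene of the list did this exceed 5%. Summed with these pseudogenes, BNIP3 was at 51.81 to 56.65 TPM in HCT116-WT and at 56.78 to 84.42 TPM in HCT116-CD276KO. These ranges were adjacent without overlap, and the sum was not tested. VEGFA, the angiogenic growth factor, and P4HA1, a collagen prolyl hydroxylase subunit, lay at 0.01 and -0.02.

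**Figure D3:**
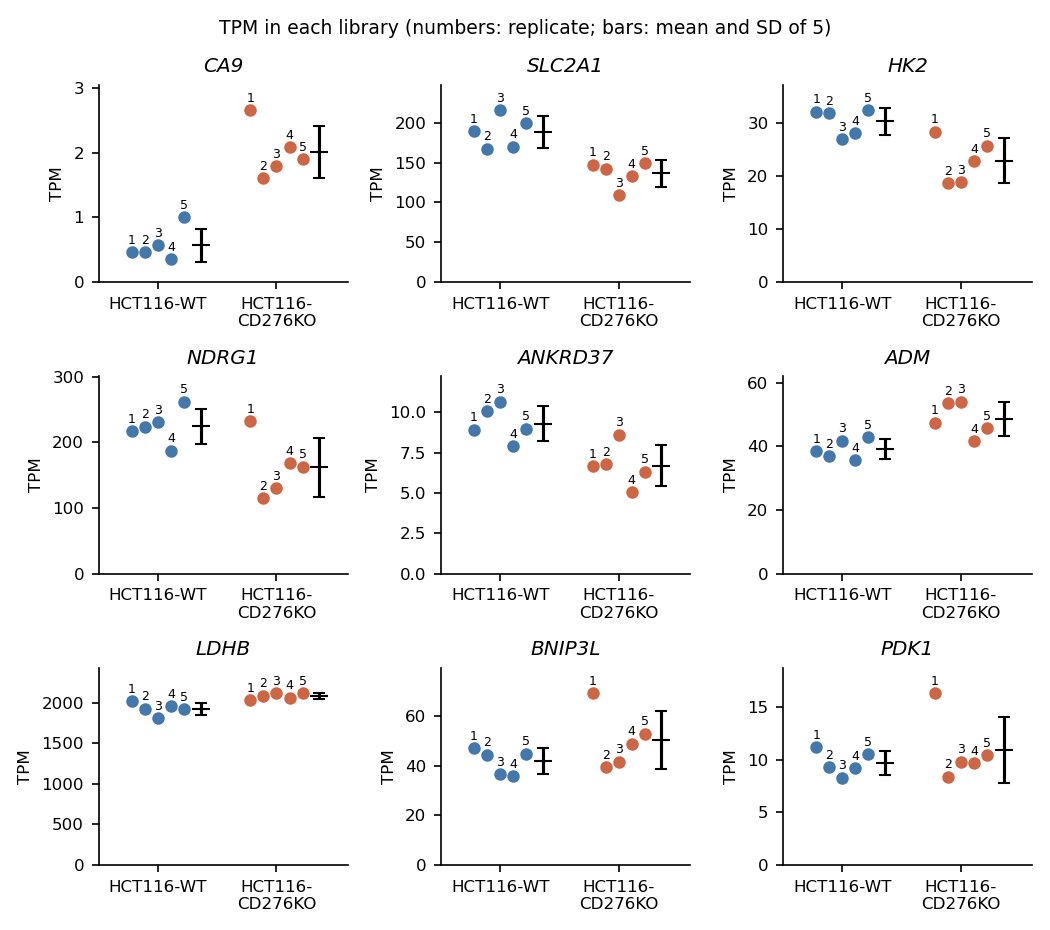
TPM (y axis, from 0) in each library for 9 genes, with replicate numbers over the points and the mean with SD of 5 libraries in black. The groups are separate for CA9, SLC2A1 and LDHB, while for NDRG1, BNIP3L and PDK1 HCT116-CD276KO replicate 1 is the highest library of its group.

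The core of the hypoxia response element was looked up in promoter windows from RefSeq (GRCh38.p14), which run from 250 bases before to 50 bases after a transcription start. The letters searched were ACGTG or GCGTG on either strand, and overlapping matches were counted as 1 site. Windows were found for 31 of the 37 genes, and not for SLC2A3, VEGFA, BNIP3L, NDRG1, SLC16A1 and VHL. Of their 58 windows, 39 (67.2%) held the motif, beside 61.5% of the 14392 windows of tested genes and 48.4% of all 35116 windows. With ACGTG alone the shares were 41.4%, 25.7% and 21.4%. Counted by gene, 29 of the 31 held it in at least 1 window, as did 71.2% of the 9849 tested genes with a window, which had fewer windows each.

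The 250 bases before the start are given for the genes that were called, CA9 and SLC2A1, and for ANKRD37 and LDHA, in which the palindrome of both strands occurs. That palindrome also occurs before the start of other genes of the list, such as BNIP3. Capitals mark the matches, in either orientation, and each sequence reads 5′ to 3′ on the gene's strand. They lie at chr9:35673678-35673927 (+) for CA9, chr1:42958869-42959118 (-) for SLC2A1, chr4:185396591-185396840 (+) for ANKRD37 and chr11:18394313-18394562 (+) for LDHA.
CA9: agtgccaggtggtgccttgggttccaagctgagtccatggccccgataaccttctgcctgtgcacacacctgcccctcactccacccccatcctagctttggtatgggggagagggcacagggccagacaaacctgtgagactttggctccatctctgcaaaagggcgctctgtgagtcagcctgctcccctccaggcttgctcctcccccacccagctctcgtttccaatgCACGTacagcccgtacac
SLC2A1: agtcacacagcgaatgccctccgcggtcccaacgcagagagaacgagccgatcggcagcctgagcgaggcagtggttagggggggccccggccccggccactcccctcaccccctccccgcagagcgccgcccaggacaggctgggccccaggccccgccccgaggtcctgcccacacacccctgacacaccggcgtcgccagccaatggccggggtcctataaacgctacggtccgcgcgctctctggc
ANKRD37: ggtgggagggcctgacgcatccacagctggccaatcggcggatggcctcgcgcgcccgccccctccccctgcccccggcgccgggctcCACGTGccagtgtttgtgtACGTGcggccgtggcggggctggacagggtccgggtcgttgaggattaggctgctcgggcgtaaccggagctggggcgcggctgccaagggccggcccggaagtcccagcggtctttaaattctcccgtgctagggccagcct
LDHA: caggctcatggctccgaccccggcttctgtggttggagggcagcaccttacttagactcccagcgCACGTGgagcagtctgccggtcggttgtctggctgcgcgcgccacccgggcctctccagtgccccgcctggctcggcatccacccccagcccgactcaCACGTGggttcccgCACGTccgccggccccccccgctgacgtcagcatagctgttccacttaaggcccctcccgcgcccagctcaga
CA9, which rose, had 1 site, 18 bases before the start. SLC2A1, which fell, had no site in the bases shown, and the match in its window lay after the start. ANKRD37 and LDHA had 2 and 3 sites in the bases shown, and a further LDHA match lay after the start. Their RNA was not called in either direction in the fit reported, while ANKRD37 was called lower in 3 of 18 alternative fits. A match describes letters and says nothing of binding in these cells.

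In each group some libraries were often at an edge of the range. HCT116-CD276KO replicate 1 was the highest library of its group for 26 of the 37 genes (70.3%), while it was the highest for 30.8% of all genes tested. This held for 13 of 17 enzymes, all 4 of HIF1A and its regulators, 3 of 4 flux kinases and 5 of 8 HIF targets, but for 1 of 4 transporters. Relative to the mean of the other 4 libraries of the clone, its value was 1.70 times as high for PDK1, 1.61 for NDRG1, 1.58 for PFKFB4, 1.51 for BNIP3L and 1.48 for ALDOC, and the median ratio was 1.17 over the list and 1.07 over all genes. After the length and GC correction it was still the highest for 24 of 37 genes, beside 21.7% of all genes. HCT116-CD276KO replicate 3 was the lowest of its group for 18 of 37 genes (48.6%), beside 33.3% of all genes, and for 12 of 17 enzymes. After the correction it was the lowest for 13 of 37 genes, beside 22.4% of all genes.

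Among the HCT116-WT libraries, replicate 4 was the lowest for 20 of 37 genes (54.1%), beside 20.0% of all genes tested, and for 7 of the 8 HIF targets. After the correction these were 22 of 37 genes, beside 21.3% of all genes, and 8 of 8 targets. HCT116-WT replicate 1 was the highest for 17 of 37 genes (45.9%), beside 34.4% of all genes tested. After the correction it was the highest for 11 of 37 genes, beside 22.7% of all genes. The median coefficient of variation of the list was 7.89% in HCT116-WT, beside 11.1% for all genes tested, and 13.5% in HCT116-CD276KO, beside 13.8%. In 32 of the 37 genes the coefficient was larger in HCT116-CD276KO, as in 63.7% of all genes. No label ties these libraries to a density, passage or medium, and the order was counted with no test. Without HCT116-CD276KO replicate 1, 4 genes of the list were called, CA9 as higher and SLC2A1, HK2 and NDRG1 as lower (10.8%), and over all genes the share called also rose, to 6.53%.

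**Figure D4:**
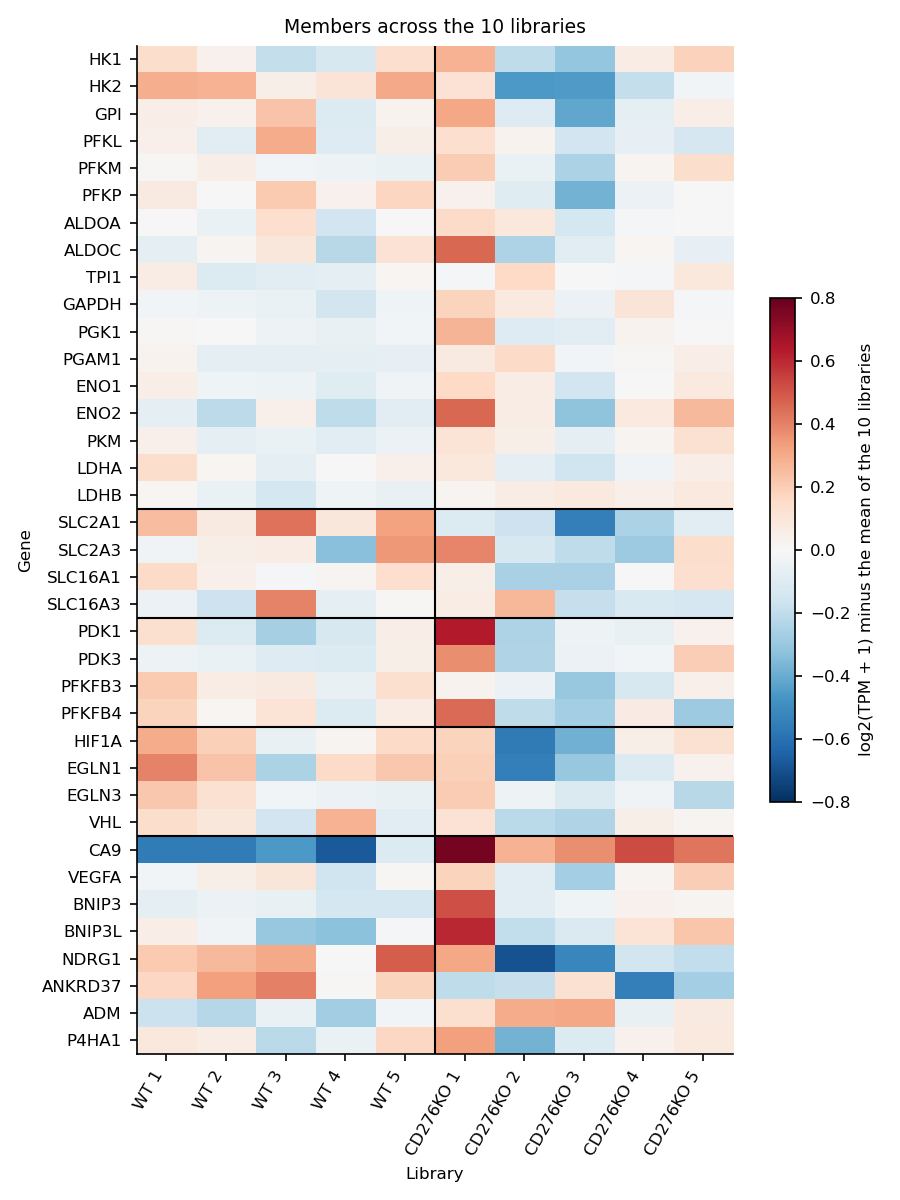
log2(TPM + 1) of each gene (y axis) minus its mean over the 10 libraries (x axis), with lines between roles and between the groups. The column of HCT116-CD276KO replicate 1 has the highest value of its group for 26 of the 37 genes, and the CA9 line changes from blue to red between the groups.

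Wider lists of 104 further genes of the pathway were counted in the same fit. Of the 79 that were tested, 3 were called lower and none higher by limma (3.80%, beside 4.87% of all genes, with 25 at an unadjusted p under 0.05, beside 21.9% of all genes), and the median log2 fold change was -0.12, beside -0.09 for all genes. None was called among 15 other glycolysis genes, 12 genes of pyruvate entry to mitochondria and 7 of the pentose phosphate pathway, with 4, 2 and 0 at an unadjusted limma p under 0.05. Of 13 other oxygen-sensing genes 1 was called lower, and of 32 other HIF targets 2 were called lower. At an unadjusted limma p under 0.05 were 5 of these 13, 4 below 0 and 1 above. For the other HIF targets this was 14 of the 32, 10 below 0 and 4 above. Over all genes tested it was 21.9%, 17.6% below 0 and 4.33% above.

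The oxygen-sensing gene that was called was EPAS1 (chr2:46293667-46386697, + strand, hg38), which encodes HIF-2 alpha, the second HIF-alpha subunit. It fell from 20.3 ± 1.12 TPM to 13.0 ± 2.11 TPM (SD, n = 5 each), a log2 fold change of -0.62 with an SE of 0.10 (limma adjusted p = 0.00507). Its libraries ranged from 18.8 to 21.7 TPM in HCT116-WT and from 10.2 to 15.8 TPM in HCT116-CD276KO, without overlap, and the call held in all 18 alternative fits. The targets that were called were INSIG2, a brake on sterol synthesis in the endoplasmic reticulum, and P4HA2, a collagen prolyl hydroxylase subunit. INSIG2 fell from 25.3 ± 1.45 to 20.0 ± 1.40 TPM (log2 fold change -0.33, limma adjusted p = 0.0214) and P4HA2 from 34.6 ± 3.09 to 28.1 ± 1.38 TPM (-0.29, limma adjusted p = 0.0443), with SD over n = 5. The INSIG2 call was kept in 12 of 18 alternative fits and was lost without HCT116-WT replicate 1, 4 or 5 or HCT116-CD276KO replicate 4. That of P4HA2 was kept in 4 of 18 and was lost without any one library but HCT116-WT replicate 3 or HCT116-CD276KO replicate 1.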

How the data were processed

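Polyadenylated RNA of 5 HCT116-WT and 5 HCT116-CD276KO replicates was sequenced from directional libraries as single reads. The authors mapped reads to hg38 with STAR 2.5.2b and quantified Ensembl 86 (GENCODE 25) genes with RSEM 1.3.0 and featureCounts 1.5.1. The authors deposited TPM values, scaled for length and to the same total in each library. Which program gave the TPM is not given in the sources used here. TPM are not counts, so sequencing depth cannot be read from them and precision was taken from the replicates.

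The 13581 genes that averaged 1 TPM or more were tested on log2(TPM + 1) with limma 3.58.1 in R 4.3.3, a linear model of group with a variance trend, and Benjamini-Hochberg adjustment over all of them. The fit was tested on simulated data, where 186 of 200 genes changed 2-fold were called and 10 unchanged ones. Errors were drawn for each gene alone, so these counts do not cover smaller changes or trends shared between genes. In the data 35 of the 37 genes lay within 0.5 of 0. Two-sided exact permutation tests of 5 against 5 replicates were added for single genes. All 37 genes of the list were named, and of the wider lists those called. Library values were printed for called genes, the most abundant of each role and HIF1A, and ranges for LDHB and EPAS1, which were chosen after their values were seen. The list, the wider lists and the alternatives were chosen with earlier results of these data known. Positions and exon overlaps came from GENCODE 44. Alternatives were another pseudocount (0.1), other level filters, median-of-ratios and quantile scaling, a robust variance model, a replicate block, removal of each library's loess trend with transcript length and GC content (13472 genes), the log2 ratio of mean TPM, and each library left out. No 2 libraries held identical values. Python 3.11.15, numpy 2.4.6, pandas 2.3.3, scipy 1.17.1 and matplotlib 3.10.9 were used for tables and figures.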

Additional observations from a re-analysis of the deposited data

Results flagged for a closer look

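In 5 of 74 sets of 5 libraries (37 genes in 2 groups), 1 library stood far from the other 4 by Dixon's test at the 95% level, where chance gives 3.7. PDK1 was at 16.34 TPM in HCT116-CD276KO replicate 1 against 8.39 to 10.44 TPM in the other 4, and BNIP3 at 53.92 TPM in the same library against 35.29 to 38.5 TPM. SLC16A3 was at 524.38 TPM in HCT116-WT replicate 3 against 354.83 to 399.7 TPM. PGAM1 was at 595.86 TPM in HCT116-WT replicate 1 against 554.47 to 558.27 TPM. GAPDH was at 4378.86 TPM in HCT116-WT replicate 4 against 4661.73 to 4767.31 TPM. What sets these libraries apart was not tested.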

How the results depend on the processing

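Over all genes tested, 662 were called, 556 lower and 106 higher. The split was 386 lower and 197 higher with median-of-ratios scaling, 385 and 253 with quantile normalization, and 699 and 600 of 1299 calls after the length and GC correction. Leaving out 1 library gave 340 to 886 calls over all genes, 1 to 4 of the 37 genes and 1 to 6 of the wider lists. Of the 37 genes, 2 were called, 1 when all genes above 0 TPM were tested, 1 at a mean of at least 5 TPM (where CA9 was not tested), and 9 after the length and GC correction. These 9 were CA9 (0.97), PDK1 (0.37), ADM (0.33), PGAM1 (0.16), PKM (0.16), LDHB (0.13), HK2 (-0.21), SLC2A1 (-0.34) and ANKRD37 (-0.45). In the wider lists 3 genes were called, and 9 after that correction. Over the 18 alternative fits 27 of the 37 genes were called in none. Ratios of summed TPM under median-of-ratios scaling were 1.1124 for the list and 1.1232 for enzymes, against 1.0378 and 1.0477. Without NDRG1 the ratio of the HIF target sum was 1.1253, against 0.9006. The corrected difference in share, in percentage points, was -5.03 for HK2 (-5.968 before) and -3.58 for PDK3 (-0.31 before). The HIF target sum without NDRG1, the shares without 1 library or after the correction, the library order after the correction and the counts for the wider lists were added after seeing the data.

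Replicate numbers did not pair the samples: deviations of same-numbered libraries correlated at -0.181 to 0.119 and 0 of 5 HCT116-CD276KO libraries correlated best with their own number. With the replicate block 378 genes were called over all, 2 of the 37 (CA9 and ANKRD37, with SLC2A1 at an adjusted p of 0.0622 in limma) and 1 of the wider lists.

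The sign changed 50 times among 19 genes, none of them called in the fit reported. With median-of-ratios scaling the log2 fold changes were GPI at 0.008, PFKL at 0.023, LDHA at 0.051, SLC2A3 at 0.049, SLC16A3 at 0.053, EGLN3 at 0.002 and P4HA1 at 0.081. With quantile normalization they were ALDOA at -0.052, GAPDH at -0.053, PGK1 at -0.048, ENO1 at -0.052, PKM at -0.007, SLC2A3 at 0.092, PFKFB4 at 0.04, EGLN3 at 0.038, VHL at 0.027 and P4HA1 at 0.096. After the length and GC correction they were GPI at 0.059, PFKL at 0.008, LDHA at 0.013, SLC2A3 at 0.096, SLC16A3 at 0.02, PFKFB4 at 0.027, EGLN3 at 0.01, VHL at 0.052 and P4HA1 at 0.063. With 1 library left out the sign changed within these ranges: HK1 -0.066 to 0.081, PFKM -0.026 to 0.088, ALDOA -0.001 to 0.073, ALDOC -0.08 to 0.097, PGK1 -0.019 to 0.074, SLC2A3 -0.142 to 0.042, SLC16A3 -0.12 to 0.047, PDK1 -0.015 to 0.207, VEGFA -0.035 to 0.082, P4HA1 -0.101 to 0.076. The causes were not tested. As TPM hold no counts, the depth behind low values such as those of CA9 is unknown.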
